A study of Mus musculus with 96 samples.

Results

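Single erythroid progenitors that passed the same sort gate were compared by how much alpha globin mRNA they held. The 24 wells of the upper intermediate gate (labelled Intermediate_50-60), out of 96 wells on the plate, were ranked by the summed CPM of Hba-a1 and Hba-a2, where CPM is a gene's read count per 1000000 reads in genes of that well. The 12 cells with most were called globin-high and the 12 with least globin-low, so both sides were chosen by a measured value. All other genes were then compared between the sides. All cells were C57/Bl6J, taken from livers at embryonic day 14.5 after depletion of lineage-positive cells, with no treatment or transgene named in the labels. They were sorted by Kit, CD71 and CD24, and the gate is named for 50 to 60% expression of CD71/CD24. Comparison cells from the same plate came from the lower intermediate gate (Intermediate_25-35, 21 kept of 24 wells), from CFUE (the colony-forming progenitors, 23 kept) and from BFUE (the earlier burst-forming progenitors, 23 kept). RNA was read by Smart-seq2, which copies whole polyadenylated transcripts of 1 sorted cell per well.

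Hemoglobin is built from alpha and beta globin chains, each holding a heme group. Erythroid progenitors start to transcribe the globin genes while they still carry Kit, and in the same period take up iron through CD71, raise the enzymes of heme synthesis and lay down the spectrin-based skeleton that later shapes the red cell membrane. The alpha globin genes Hba-a1 and Hba-a2 lie beside each other and are near-identical copies, so reads can be split between them in ways the count table does not show, and their sum was used for the ranking.

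The 24 cells spanned a 45.4-fold range of alpha globin mRNA, from 21 to 954 CPM with a median of 92.4 CPM. Globin-high cells ranged from 96.7 to 954 CPM, with the middle cells at 141 and 147 CPM, and globin-low cells from 21 through 49.7 to 88 CPM. The dividing line was no gap: the cell just inside the high side held 96.7 CPM and the cell just outside held 88 CPM, a step of 1.10-fold. The largest step in the ranking lay higher up. The 3 cells of wells H8, A8 and E9 held 954, 859.7 and 707 CPM, 4.18-fold or more above the next cell at 169 CPM, while no other step exceeded 1.46-fold. These 3 cells gave 69.0% of the globin reads of the high side, and folds and list medians below are therefore followed by the value without the 3 cells, for the other 9 globin-high cells against the 12 globin-low cells. The lower intermediate cells had a median of 12.6 CPM and a highest value of 63.4 CPM, and CFUE cells a median of 871 CPM, with 12 of 23 at or above the lowest of the 3 cells that stand apart.

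**Figure D1:**
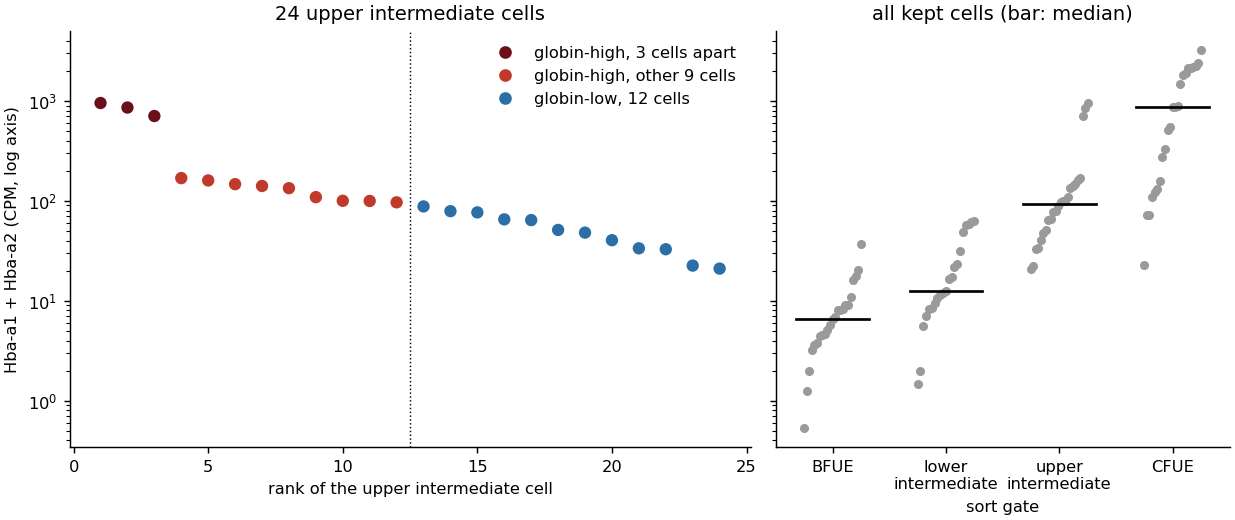
Summed CPM of Hba-a1 and Hba-a2 on a log axis, for the 24 upper intermediate cells by rank (left, dotted line between the sides) and for all kept cells by sort gate (right, bar at the median). The 3 highest upper intermediate cells, from 707 to 954 CPM, sit apart from the other 21 and among the CFUE cells.

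Hba-a1 (chromosome 11, 32283511 to 32284465, GRCm38, plus strand) made up 89.1% of the reads of the pair, and between 64.9% and 94.4% in single cells. The markers proposed for the globin-high cells were Hba-a1, Epb42 and Alas2, and the sequences before their starts are shown because GATA1 and KLF1, regulators of erythroid genes, are known to bind GATAA and CACCC motifs. RefSeq promoter windows (GRCm38.p6) of 250 bases before the start were searched for GATAA and CACCC on both strands, and the part that also lies before the GENCODE gene start is printed 5′ to 3′ with matches in capitals. The Hba-a1 and Hba-a2 windows shared 247 of 247 aligned bases, so only Hba-a2 is printed. For Hba-a1, 89 bases of the window also lie before the GENCODE start, with 1 GATAA and 1 CACCC match. The Hba-a2 stretch lies at chr11:32296242-32296488 on the plus strand, Epb42 at chr2:121037073-121037127 on the minus strand and Alas2 at chrX:150547167-150547374 on the plus strand. Arhgdib, at chr6:136941900-136942149 on the minus strand, is added as a gene that was lower in globin-high cells.
Hba-a2: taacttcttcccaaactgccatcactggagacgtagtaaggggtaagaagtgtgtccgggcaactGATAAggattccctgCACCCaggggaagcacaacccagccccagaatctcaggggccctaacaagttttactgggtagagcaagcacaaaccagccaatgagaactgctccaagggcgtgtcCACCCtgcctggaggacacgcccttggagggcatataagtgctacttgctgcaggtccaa
Epb42: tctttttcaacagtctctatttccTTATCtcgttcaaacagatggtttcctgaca
Alas2: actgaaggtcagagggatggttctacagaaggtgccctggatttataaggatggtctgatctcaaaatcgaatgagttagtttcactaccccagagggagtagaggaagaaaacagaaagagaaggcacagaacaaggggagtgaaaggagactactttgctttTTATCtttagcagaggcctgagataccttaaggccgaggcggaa
Arhgdib: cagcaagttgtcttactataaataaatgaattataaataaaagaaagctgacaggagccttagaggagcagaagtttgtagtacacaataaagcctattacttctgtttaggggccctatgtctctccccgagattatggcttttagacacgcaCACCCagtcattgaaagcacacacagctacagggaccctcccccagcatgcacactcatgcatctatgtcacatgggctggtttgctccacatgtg

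The printed stretches held 1 GATAA match each in Hba-a2, Epb42 and Alas2 and 0 in Arhgdib, with 2 CACCC matches in Hba-a2 and 1 in Arhgdib. The full windows of 250 bases held the same numbers, except that Alas2 had 3 CACCC matches, all in the part not printed. Over all 32851 promoter windows of 250 bases, 22.6% held GATAA, 52% held CACCC and 10.1% held both. Windows of genes measured in the gate, taken as 1 per gene, held GATAA in 14.4% and CACCC in 54.3%. Of the 95 genes that meet the rule for named genes on the high side (below), 74 had a window, and 13.5% of these held GATAA and 54.1% CACCC, shares close to those of measured genes. Of the 109 on the low side, 89 had a window, with 8.99% and 56.2%.

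The sides were alike in depth and place on the plate. Globin-high cells held 1270059 to 1815656 reads in genes (median 1515976) and globin-low cells 1268042 to 1814705 (median 1462692), with medians of 9422 and 9475 genes per cell and 1.91% and 1.85% mitochondrial reads. Each side had 4 cells in each of the 3 plate columns of the gate, and 5 globin-high against 7 globin-low cells lay in plate rows A to D. The 3 cells apart held 8246, 8749 and 9428 genes in the lowest, the middle and the highest of them. The cells of wells A8 and H8 had the lowest gene counts of the gate, with the next cell at 8998 genes. H8 also had the lowest mitochondrial share, 0.965%, against 1.42% or more in all other cells of the gate. No animal or pool is named in the labels, so the cells count as 1 sample, no test or p-value is given, and intervals are exact 95% intervals of counting error only, for reads that carry no molecular identifiers. Of 8 lists of markers of other cell types, 7 had no gene at 10 CPM or more over the gate. All 9 mast cell and basophil markers were at 0, and the lymphoid markers summed to at most 0.648 CPM in any cell. The megakaryocyte markers summed to 0 to 106 CPM in globin-high and 0.725 to 46.9 CPM in globin-low cells, and those of stem and multipotent progenitors to at most 35.4 and 74.1 CPM. Of the 12 hepatoblast markers, Afp, Alb and Apoa1 passed that level. They and the rest of their list summed to 65 to 381 CPM in globin-high and 24.2 to 623 CPM in globin-low cells, and their part in the results was not tested.

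Of 7441 genes at 10 CPM or more over the 24 cells, 763 (10.3%) were at least 1.5-fold higher in the globin-high cells and 697 (9.37%) at least 1.5-fold lower. Without the 3 cells apart, 669 (8.99%) were higher and 726 (9.76%) lower. The higher genes of both counts shared 518, which is 67.9% of the first list and 77.4% of the second, and the lower genes shared 501 (71.9% and 69.0%). The median log2 ratio over all genes was 0.006. Because the ratio comes from the same cells that the ranking divided, the counts of list members below are descriptions, to be set beside these shares, and nothing particular to a list is read from them.

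The genes stained for sorting differed little between the sides. Kit, the stem cell factor receptor, ranged from 105 through 369 to 812 CPM in globin-high cells and from 81.6 through 470.3 to 579 CPM in globin-low cells. The ratio of the sums was 1.0 (interval 0.973 to 1.04), and the sides overlapped over most of their range (log2 ratio 0.25 without the 3 cells). The 3 cells apart held 105, 227 and 237 CPM of Kit in ascending order, below the median of either side. Tfrc, which encodes CD71, was at medians of 649.8 and 594 CPM, with a log2 ratio of 0.26, and Cd24a at 819.7 and 675 CPM, with a log2 ratio of 0.36. Without the 3 cells apart, the Cd24a log2 ratio was 0.15 and that of Tfrc again 0.26. Those 3 cells held 804, 1158 and 1609.8 CPM of Cd24a in ascending order. Against the rest of the gate, their summed CPM was 1.74-fold higher for Cd24a, 1.12-fold higher for Tfrc and 2.36-fold lower for Kit.

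Beta globin mRNA did not follow alpha globin mRNA in this gate. The summed CPM of Hbb-bs and Hbb-bt, the adult beta globin genes, ranged from 1.32 through 13.1 to 424 CPM in globin-high cells and from 2.37 through 10.2 to 52.3 CPM in globin-low cells. The 3 cells apart held 25.8, 57.5 and 424 CPM in ascending order, but the other 9 globin-high cells had a median of 8.41 CPM, below that of the globin-low cells. For Hbb-bs the log2 ratio of the sides was 1.86 with all cells and 0.04 without the 3 cells, and 61.1% of its globin-high reads came from 1 cell. Hbb-bt was at 2.18 and 1.33, with the globin-high cell higher in 51.4% of all pairs of a globin-high and a globin-low cell. As a description across cells that share a plate and a library type, Spearman's rho between alpha and beta globin CPM was 0.20 over the 24 cells and -0.12 over the 21 without those 3. In CFUE it was 0.83 over 23 cells, where the beta globin median was 139.7 CPM, and in the lower intermediate gate 0.04 over 21 cells. All 24 upper intermediate cells had reads of beta globin, but only 1393 in total, so single cells rest on few reads. Hbb-bs and Hbb-bt are also near-identical copies.

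Heme is made from glycine and succinyl-CoA in 8 enzymatic steps. Of the 8 heme enzyme genes measured, 7 were higher in globin-high cells in over 50% of pairs and 2 were past 1.5-fold, neither of them so without the 3 cells. Their median log2 ratio was 0.34 (0.25 without the 3 cells). Uros, which closes the porphyrin ring, was 1.93-fold higher (interval 1.82 to 2.06), but its log2 ratio dropped from 0.95 to 0.37 without the 3 cells. Ppox, which makes protoporphyrin (chromosome 1, 171275990 to 171281186), ranged from 101 through 277 to 500.4 CPM in globin-high cells and from 55.3 through 177 to 288 CPM in globin-low cells. The sides overlapped, with the globin-high cell higher in 77.1% of pairs, and the ratio of sums was 1.54 (interval 1.47 to 1.61, and 1.39 without the 3 cells). Urod and Fech, which act before and after it, had log2 ratios of 0.31 and 0.36 (0.24 and 0.26 without the 3 cells). Alas1, the housekeeping form of the first enzyme, was the exception at a log2 ratio of -0.39 (0.01 without the 3 cells).

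Alas2, a proposed marker that encodes the erythroid version of the initial enzyme (chromosome X, 150547375 to 150570638), did not mark the globin-high cells as a group. It had reads in 4 of 12 globin-high and 2 of 12 globin-low cells, with a median of 0 CPM in both sides and highest values of 76.7 and 22.8 CPM. The sums gave a 7.01-fold difference (interval 4.91 to 10.3), which rests on those few cells (3.39-fold without the 3 cells). In plate rows A to D the log2 ratio was -3.02 and in rows E to H 5.84. Even among CFUE cells the median was 0.712 CPM.

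Of 12 measured genes for the transport and cofactors of heme synthesis, 5 were past 1.5-fold higher and 0 lower (median log2 ratio 0.26, and 0.12 without the 3 cells, with 2 genes past 1.5-fold). Tmem14c, a mitochondrial protein needed to bring in the porphyrin precursor, ranged from 639.7 through 785 to 1305 CPM in globin-high and from 463 through 659.6 to 859 CPM in globin-low cells, higher in 83.3% of pairs. Fam210b, a mitochondrial membrane protein, was 2.54-fold higher but 1.55-fold without the 3 cells, and its log2 ratio was 0.55 in plate rows E to H against 2.16 in A to D. The transporters Abcb10 and Abcb6 were 1.72-fold and 1.80-fold higher (1.44-fold and 1.92-fold without the 3 cells). Slc25a37, mitoferrin 1, which carries iron into mitochondria, had medians of 42.9 and 7.13 CPM. It was not among the 2 genes past 1.5-fold without the 3 cells. Genes for iron uptake, storage and export gave 0 of 12 past 1.5-fold in either direction, and a median log2 ratio of 0.09 (0.06 without the 3 cells). Fth1, the ferritin heavy chain, was higher in 77.8% of pairs at a 1.19-fold ratio (1.08-fold without the 3 cells).

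The membrane skeleton, the spectrin and actin mesh under the red cell membrane, had 6 of 13 measured genes higher and 0 lower. The median log2 ratio was 0.46 (0.27 without the 3 cells, 5 genes higher). Epb42, protein 4.2, which ties the skeleton to the anion exchanger (chromosome 2, 121017891 to 121037072), ranged from 21.7 through 90.5 to 445 CPM in globin-high and from 0 through 39.5 to 117 CPM in globin-low cells. It was 3.24-fold higher (interval 3.0 to 3.51), and the sides overlapped: 75.7% of pairs went that way, and the log2 ratio was 0.87 in place of 1.70 without the 3 cells. Sptb, beta spectrin (chromosome 12, 76580488 to 76710547), separated the sides further, from 61.2 through 135 to 245 CPM against 14.8 through 48.3 to 147 CPM, higher in 85.4% of pairs and 2.11-fold in the sums (1.82-fold without the 3 cells). Tmod1, tropomodulin, which caps the short actin filaments of the skeleton, was 5.66-fold higher (interval 4.68 to 6.88), against 2.73-fold without the 3 cells, and had reads in 10 globin-high and 5 globin-low cells. Tpm3, a tropomyosin, went the other way, from 111 through 162 to 234 CPM against 145 through 237 to 323 CPM, and was the higher in globin-high cells in only 18.1% of pairs.

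Genes of red cell surface and blood group proteins gave 6 of 15 higher and 0 lower. The median log2 ratio was 0.43 (0.31 without the 3 cells, 3 higher and 1 lower). The mean log2(CPM + 10) of the list was 7.82 ± 0.33 (SD over 12 cells) in globin-high and 7.39 ± 0.26 in globin-low cells. A globin-high cell had the higher list mean in 94.4% of pairs, the largest share among the lists that were higher in those cells. Spearman's rho of the list mean with alpha globin CPM, as a description, was 0.79 over 24 cells and 0.81 over the 21. Kel, the Kell blood group protein (chromosome 6, 41686330 to 41704339), ranged from 104 through 239 to 358 CPM against 59 through 137 to 277 CPM, and was 1.58-fold higher (interval 1.5 to 1.66, and 1.43-fold without the 3 cells). The sides overlapped, and the globin-high cell was higher in 78.5% of pairs. Gypc, glycophorin C, was 1.51-fold higher and Rhd 1.40-fold (1.47-fold and 1.23-fold without the 3 cells). Rhag and Cd47, partners of the Rh complex, had log2 ratios of 0.35 and 0.43 (0.23 and 0.40 without the 3 cells).

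Late erythroblast genes, taken from the stages after the progenitors, had 10 of 19 higher and 1 lower. The median log2 ratio was 0.60. Without the 3 cells this was 5 higher and 2 lower with a median of 0.26, a smaller difference. Mkrn1, a makorin ubiquitin ligase (chromosome 6, 39397804 to 39420462), ranged from 10.2 through 97.5 to 335 CPM against 1.45 through 44.1 to 97 CPM. It was higher in 81.9% of pairs, 2.61-fold in the sums (interval 2.4 to 2.83), and at a log2 ratio of 0.83 without the 3 cells. Tmcc2 was 2.75-fold higher and 1.65-fold without the 3 cells. Car2, carbonic anhydrase 2, was at medians of 2299 and 1853 CPM, with a log2 ratio of 0.46 (0.31 without the 3 cells).

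**Figure D2:**
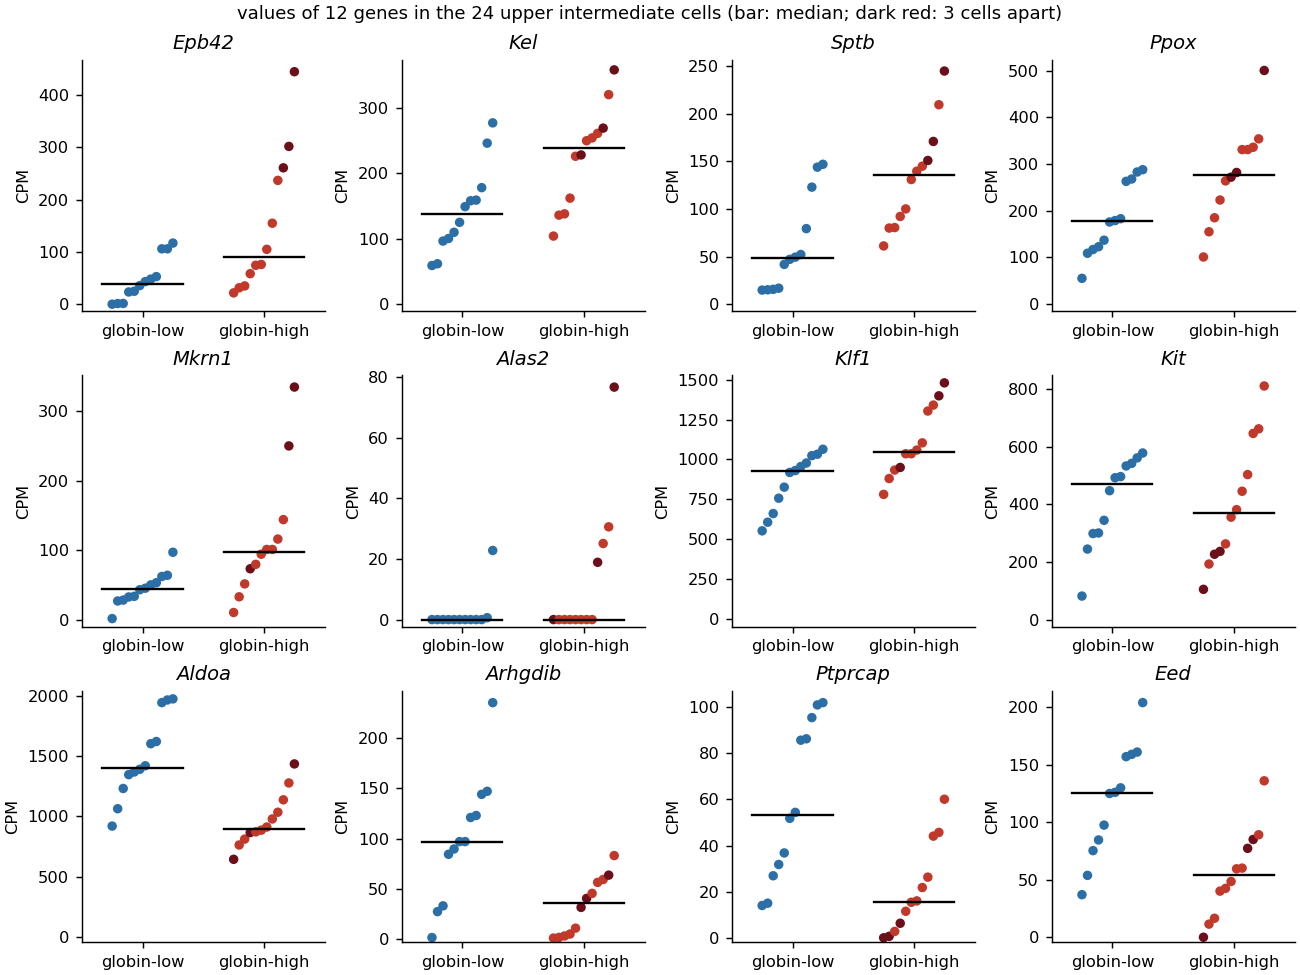
CPM of 12 genes in each globin-low and globin-high upper intermediate cell, with linear axes that start at 0 and a bar at the median of each side. Sptb, Ppox and Mkrn1 show offset but overlapping sides, Alas2 is at 0 in most cells of both, Kit overlaps over most of its range, and Aldoa, Arhgdib, Ptprcap and Eed are offset downwards.

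Erythroid transcription factors stood mostly level, with 3 of 16 higher, 1 lower and a median log2 ratio of 0.01 (0.02 without the 3 cells). Klf1, an activator of globin and membrane genes, ranged from 782 through 1047 to 1479 CPM against 554 through 925 to 1064 CPM, higher in 80.6% of pairs at a 1.28-fold ratio (1.20-fold without the 3 cells). Mllt3 was 1.69-fold higher, and Klf3, a repressor of the same family as Klf1, 1.75-fold lower (1.55-fold and 1.88-fold without the 3 cells). Hemgn was 1.52-fold higher, with log2 ratios of 0.60 and 0.09 with and without the 3 cells. Early progenitor transcription factors had 1 of 11 higher, Zfp36l1, an RNA-binding protein in that list, at 2.06-fold (1.67-fold without the 3 cells), and 1 lower, Hhex. Hhex, a homeobox factor of early blood progenitors, ranged from 0 through 0.610 to 18.2 CPM in globin-high and from 0 through 20.3 to 99.2 CPM in globin-low cells, 12.7-fold lower in the sums (interval 9.39 to 17.7), with log2 ratios of -3.67 with and -3.32 without the 3 cells.

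Among receptors and signalling genes of early progenitors and erythropoietin, 0 of 12 were higher and 4 lower. Their log2 ratios had a median of -0.37 (-0.30 without the 3 cells). The list's median was 0.01 when only genes at 50 CPM or more were kept, and 0.17 with no filter. Nr3c1, the glucocorticoid receptor, which is known to sustain the renewal of early erythroid progenitors, had medians of 28.1 and 57.9 CPM and was 1.92-fold lower. Stat5b, which relays erythropoietin signals, was 1.57-fold lower, and Igf1r, a growth factor receptor, 1.68-fold. These were 1.71-fold, 1.52-fold and 1.27-fold lower without the 3 cells. Epor, the erythropoietin receptor, ranged from 274 through 314 to 670.4 CPM against 95.7 through 288 to 441 CPM, with a log2 ratio of 0.32 (0.17 without the 3 cells).

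Adhesion, actin and membrane scaffold genes had 1 of 22 higher and 8 lower. The median log2 ratio was -0.09 (-0.01 without the 3 cells, 6 lower). Arhgdib, which holds small GTPases inactive in blood cells (chromosome 6, 136923655 to 136941899), ranged from 1.32 through 36.2 to 83.2 CPM in globin-high and from 1.87 through 97.1 to 235 CPM in globin-low cells. It was 2.79-fold lower (interval 2.55 to 3.06), and 9 of 12 globin-low cells were above every globin-high cell. Arhgdib was 3.06-fold lower without the 3 cells, but its log2 ratio was -0.64 in plate rows E to H, against -3.39 in A to D, and -0.32 with the cells ranked by beta globin. Ptprcap, which binds the CD45 phosphatase, went from 0 through 15.7 to 60.1 CPM against 14 through 53.1 to 102 CPM, 2.65-fold lower (2.04-fold without the 3 cells). Rgs19, a regulator of G protein signals, was 7.45-fold lower (5.69-fold without the 3 cells) and had a median of 0 in globin-high and 26.4 CPM in globin-low cells. Anxa2, a membrane-binding annexin, was 3.50-fold lower (3.17-fold without the 3 cells).

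Among the metabolic lists, glycolysis was offset furthest, with 0 of 15 genes higher, 4 lower and a median log2 ratio of -0.38 (-0.27 without the 3 cells, 4 lower). Its mean log2(CPM + 10) was 8.20 ± 0.20 (SD over 12 cells) in globin-high and 8.60 ± 0.30 in globin-low cells, and the globin-high cell was the higher in only 13.9% of pairs. The median log2 ratio of the list was -0.57 in plate rows A to D but -0.16 in rows E to H. Aldoa, aldolase A (chromosome 7, 126795234 to 126800751), ranged from 643 through 898 to 1435 CPM against 919 through 1405 to 1975 CPM, and was higher in globin-high cells in 9.72% of pairs. It was 1.53-fold lower (interval 1.51 to 1.56), and its log2 ratio was -0.62 with and -0.61 without the 3 cells. Pfkp, the platelet form of phosphofructokinase, was 13.4-fold lower (interval 9.74 to 18.9), with medians of 0.608 and 30.1 CPM, and Hk2, hexokinase 2, 7.17-fold lower. Hk2 was 5.53-fold lower without the 3 cells and Pfkp 58.9-fold, from 0.509 CPM over the other 9 globin-high cells. Eno1, enolase 1, and Ldha, lactate dehydrogenase A, were at log2 ratios of -0.47 and -0.36 (-0.46 and -0.28 without the 3 cells). Of nuclear genes for oxidative phosphorylation, 0 of 24 were past 1.5-fold in either direction (median log2 ratio 0.07, and 0.02 without the 3 cells), and the mitochondrially encoded genes had a median of 0.00 (0.06).

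DNA methylation and polycomb genes, which maintain silenced chromatin, had 0 of 14 higher and 5 lower. The median log2 ratio was -0.29 (-0.44 without the 3 cells, 7 lower). The list mean was 5.33 ± 0.20 (SD over 12 cells) in globin-high and 5.64 ± 0.21 in globin-low cells, higher in 12.5% of pairs. Over single genes of the list, the median share of pairs with the globin-high cell higher was 45.1%. The median log2 ratio was -0.59 in plate rows A to D but -0.11 in rows E to H. It was -0.17 for the 6 genes at 50 CPM or more. Eed, a core subunit of polycomb repressive complex 2 (chromosome 7, 89954654 to 89980983), ranged from 0 through 54 to 136 CPM against 37 through 125 to 204 CPM, 2.16-fold lower (interval 2.0 to 2.33, and 2.15-fold without the 3 cells). Rnf2, the ubiquitin ligase of the other polycomb complex, was 1.97-fold lower, and Dnmt3a, a de novo DNA methyltransferase, 2.03-fold (2.49-fold and 1.82-fold without the 3 cells). Dnmt1, the maintenance methyltransferase, had a log2 ratio of 0.11.

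Cell cycle lists differed by phase. S phase genes had 0 of 26 past 1.5-fold in either direction and a median log2 ratio of -0.03 (-0.05 without the 3 cells, 1 higher and 1 lower). G2 and M phase genes had 6 of 26 higher and 0 lower, with a median of 0.38 (0.23 without the 3 cells). Kif11, a spindle motor, ranged from 72.6 through 185 to 382 CPM against 2.90 through 75.3 to 229.8 CPM, higher in 79.9% of pairs and 2.03-fold in the sums. Aurka, the mitotic kinase Aurora A, was 1.97-fold higher. They were 2.04-fold and 2.01-fold higher without the 3 cells. Phase itself was not called, and the median of the G2 and M list was 0.13 in plate rows E to H and 0.48 in rows A to D. With the cells ranked by beta globin that median was -0.16. Ribosome biogenesis had 0 of 24 past 1.5-fold, at a median of -0.11 with and without the 3 cells, although Mybbp1a, which represses ribosomal gene transcription, was lower in globin-high cells in most pairs (18.1% with the globin-high cell higher). Cytosolic ribosomal proteins were at 0.06 with and without them.

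**Figure D3:**
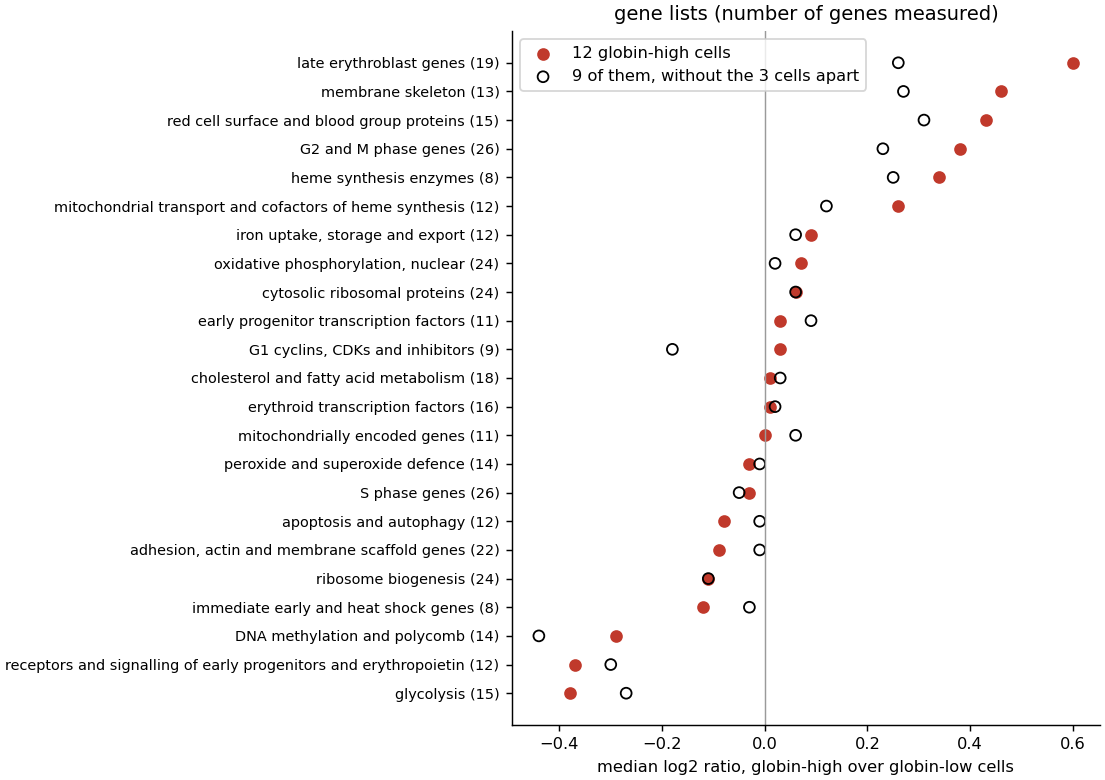
Median log2 ratio of globin-high over globin-low cells for each gene list with 8 or more measured genes, with all 12 globin-high cells (filled) and with the 9 left without the 3 cells apart (open). Late erythroblast, membrane skeleton, surface, heme and G2 and M lists lie above 0 with both, and glycolysis, receptor and polycomb lists below 0 with both.

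By the rule for named genes, which asks for 20 CPM, 1.5-fold and 75% of pairs in 1 direction among other conditions, 95 genes (1.28%) were higher and 109 (1.46%) lower. Among the 95, besides genes described above, the largest ratios belonged to Capn10, a calpain protease, at 5.19-fold, Stk17b, a serine/threonine kinase, at 4.19-fold, and Sgms1, a sphingomyelin synthase, at 4.09-fold (4.50-fold, 4.39-fold and 3.10-fold without the 3 cells). Lrrc56 ranged from 2.06 through 52.3 to 259.8 CPM against 0 through 2.16 to 141 CPM, higher in 86.8% of pairs. Fam83d, a mitotic spindle protein, was 3.28-fold higher, Adipor2, an adiponectin receptor, 3.22-fold, Zfp281, a zinc finger factor, 2.77-fold, and Lrrc28, Rcbtb1 and Tbc1d8 between 2.76-fold and 2.95-fold. Without the 3 cells, Lrrc56 was 3.99-fold, Fam83d 3.52-fold, Adipor2 2.74-fold and Zfp281 3.05-fold higher, and the last 3 genes were between 1.93-fold and 2.65-fold.

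Among the 109 genes that meet the rule on the low side, the largest ratio was that of Tap2, a peptide transporter of antigen presentation, from 0 through 1.33 to 33.2 CPM against 12.8 through 35.8 to 89.2 CPM. It was 4.01-fold lower (interval 3.42 to 4.72, and 4.96-fold without the 3 cells), and the globin-high cell was higher in 10.4% of pairs. Sptssa, a subunit of the enzyme that starts sphingolipid synthesis, was 3.87-fold lower, with medians of 11.1 and 57.9 CPM. Coq10b, a coenzyme Q binding protein, was 3.19-fold lower and was read in every globin-low cell at 14.7 CPM or more. Bcl2l11, which encodes the death-promoting protein BIM, was 2.84-fold lower, Spast, a microtubule-severing enzyme, 3.73-fold, Slc25a15, the mitochondrial ornithine carrier, 3.30-fold, and Gcat, a mitochondrial enzyme of glycine metabolism, 2.94-fold. Fam118a, Cptp, Rev1, Adal, Ube2q2 and D17Wsu92e were between 2.58-fold and 3.81-fold lower. In the other 9 globin-high cells Bcl2l11 was 4.70-fold and Adal 4.59-fold lower, and the other genes named here from Sptssa on were between 2.02-fold and 3.37-fold. The 15 genes with the largest ratios on each side, taken among those that meet the rule, were all past 1.5-fold in the same direction without the 3 cells. These genes were chosen in the same cells, and all 95 and all 109 genes of the rule kept their direction. The agreement therefore follows largely from the choice and is no separate support.

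Whether alpha globin follows the wider progress from one gate to the next was asked with genes chosen in other cells. Between the lower intermediate gate and CFUE, 228 genes were at least 2-fold higher in CFUE and 312 at least 2-fold lower, the alpha globin genes left out. Each upper intermediate cell was placed by these 540 genes on a scale with 0 at the mean of the lower intermediate cells and 100 at the mean of the CFUE cells. Globin-high cells stood at 41.8 through 62.6 to 96.5 and globin-low cells at 18.1 through 33.9 to 59.8. The means were 64.9 ± 18.7 and 39.1 ± 12.5 (SD over 12 cells), and the globin-high cell was further on in 87.5% of pairs. The sides overlapped, with 8 globin-high cells above every globin-low cell and 7 globin-low cells below every globin-high cell. The 3 cells apart stood at 75.4, 94.9 and 96.5 in ascending order, and the other 9 globin-high cells had a median of 60.5. Spearman's rho between position and alpha globin CPM, a description across cells of 1 plate, was 0.83 over the 24 cells and 0.76 over the 21.

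The same positions did not order with beta globin. With the 12 cells richest in Hbb-bs and Hbb-bt against the other 12, and these genes left out of the scale, the medians were 46.3 and 49.6 and the means 55.3 ± 23.7 and 49.3 ± 17 (SD over 12 cells), so that median and mean differed in opposite directions. Spearman's rank correlation with position was 0.21 over 24 cells and -0.11 over the 21. Of the 12 cells richest in alpha globin, 7 were among the 12 richest in beta globin.

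**Figure D4:**
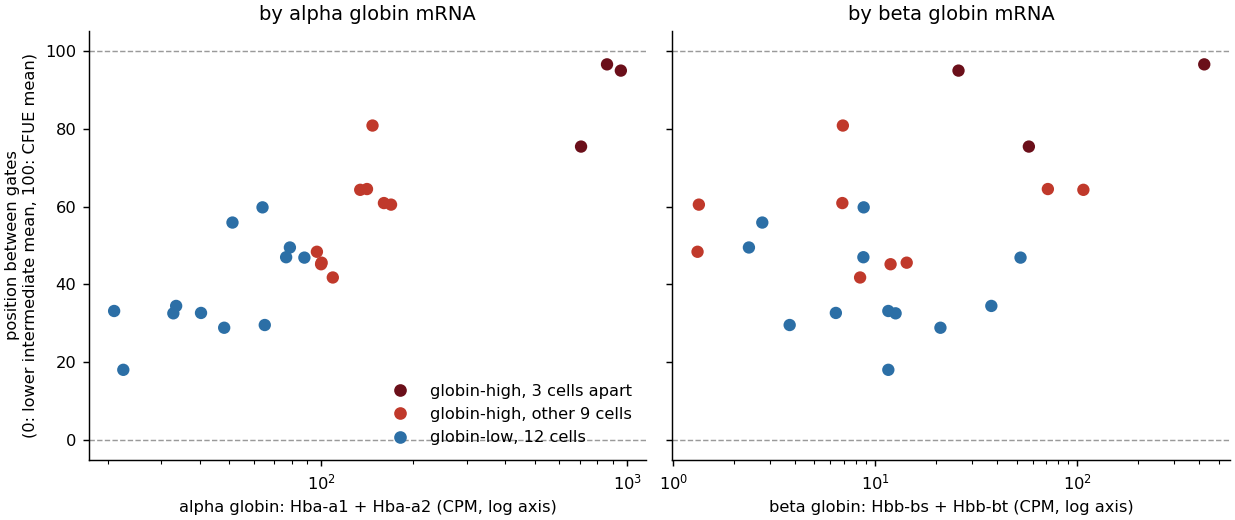
Position of each upper intermediate cell between the lower intermediate gate (0) and CFUE (100), against its alpha globin CPM (left) and beta globin CPM (right), both on log axes. Positions climb with alpha globin, from 18.1 to 96.5, and show no such order with beta globin apart from the 3 highest alpha globin cells.

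Of the 213 scale genes higher in CFUE that were measured, 93 (43.7%) were past 1.5-fold higher in globin-high cells and 12 (5.63%) lower, against 10.3% and 9.37% of all genes. Of the 284 genes lower in CFUE, 84 (29.6%) were lower and 21 (7.39%) higher. Without the 3 cells, 52 of the first set were higher and 17 lower, and the median log2 ratio was 0.27 in place of 0.50. Of the second set, 67 were lower and 23 higher, with a median of -0.18 in place of -0.25. Over all genes, 8.99% were higher and 9.76% lower in that comparison.

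The genes that meet the naming rule were then read in cells that the ranking did not use. The 11 CFUE cells with most alpha globin (876 to 3225 CPM) were set against the 11 with least (23 to 548 CPM). Of the 95 genes higher in globin-high upper intermediate cells, 34 (35.8%) were past 1.5-fold higher in the globin-rich CFUE cells, where 12.8% of all genes were. Of the 109 lower genes, 46 (42.2%) were past 1.5-fold lower there, against 19.9% of all genes. In the lower intermediate gate, 10 cells with 16.7 to 63.4 CPM were set against 10 with 1.46 to 12.1 CPM. There 28 of the 95 higher genes (29.5%) were higher, against 9.93% of all genes, but only 6 of the 109 lower genes (5.50%) were lower, against 11.1%. In direction alone, 64 of the 95 higher genes (67.4%) were higher in the globin-rich CFUE cells, against 42.6% of all genes. Of the 109 lower genes, 87 (79.8%) were lower there, against 57.4% of all genes. In the lower intermediate gate 69 of the 95 (72.6%) were higher, against 51.6% of all genes. Only 50 of the 109 (45.9%) were lower there, against 48.4%. Of the 15 largest ratios on each side among the rule's genes, 9 on the high side and 11 on the low side kept their direction in CFUE. Tmod1 was 4.22-fold and Kel 2.02-fold higher in globin-rich CFUE cells, and Ptprcap 8.35-fold and Gcat 10.5-fold lower. Going the other way, Tbc1d8, Sgms1, Fam83d, Capn10, Zfp281 and Stk17b had log2 ratios of -0.70, -0.65, -0.64, -0.53, -0.39 and -0.15 there. Kit, level between the sides in the upper intermediate gate, was 2.90-fold lower in them.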

How the data were processed

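Smart-seq2 reads of 96 single cells on 1 plate were processed by the authors with STAR 2.4, GRCm38 and featureCounts, per the submitters' processing notes. They deposited raw counts, whole numbers for each gene in each well. Annotation release, strand setting and the treatment of shared reads were not given in the sources used here. In the table the header is longer than the data lines by an empty cell, so names were taken in order.

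Of 49466 genes, 20754 had a read. Rows without a gene and columns without a sample numbered 0, and 0 columns were identical. Wells with 50000 reads and 1000 genes were kept (91 of 96). Kept cells held 947458 to 3785903 reads. Of 49389 identifiers, 99.7% were in GENCODE M21, the source of 1-based coordinates, and for symbols with several identifiers the one with most reads was used. Doublets were not called, since each well was sorted as 1 cell.

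Counts were summed over the cells of a side and divided by the side's reads (CPM). Ratios have exact conditional binomial (Clopper-Pearson) intervals at 95%, covering counting error alone. In ratios, 0 counts were set to 3 per side (0.164 and 0.166 CPM). Genes at 10 CPM over the 24 cells were measured, and those at 1.5-fold counted as higher or lower. Named genes had 20 CPM, 1.5-fold in summed and in mean CPM, reads in 9 of 12 cells of the higher side, at most 50% of that side's reads in 1 cell, and 75% of all high-low pairs of cells in 1 direction. Predicted genes and pseudogenes were left out, the 15 largest and 15 smallest ratios were named with the sorted and marker genes, and up to 6 members of each list by their share of pairs. Some of these genes are not reported here. Genes of the scale between gates had 20 CPM, 2-fold in summed and mean CPM and reads in 50% of cells of the higher gate. The scale is a difference of mean log2(CPM + 10).

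The members, the 32 lists (8 of them markers of other cell types) and the comparisons were chosen with earlier results of these data known. Alternatives were the mean or median of per-cell CPM, scaling by edgeR 4.0.16 (TMM) or by DESeq2 1.42.0 under R 4.3.3, other totals, filters, folds, rankings and numbers of cells, counts thinned to 900000 reads per cell, and plate rows alone. Leaving out the 3 cells apart was chosen after seeing the data. Code for the ratios was tested on simulated data. Scripts ran in Python 3.11.15 with scipy 1.17.1, pandas 2.3.3, matplotlib 3.10.9 and numpy 2.4.6.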

Additional observations from a re-analysis of the deposited data

How the results depend on the processing

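The counts of 763 higher and 697 lower genes stayed within 1.5 times under TMM and DESeq2 scaling, thinning and mean CPM. They also did so with 8 against 8 cells, and without the cell with most or with least globin. They moved to 1312 and 1241 with 6 against 6 cells, 1146 and 1054 in plate rows E to H, 1210 and 1254 in A to D, 2878 and 3025 without a filter on low genes, 192 and 122 at 50 CPM, and 236 and 230 at 2-fold, and the lower genes to 1196 with the median of per-cell CPM. Ranking by Hba-a1 alone put the same 12 cells on the high side, so its values could not differ and it was no separate check. Ranking by beta globin shared only 7 of 12 high-side cells, yet its counts also stayed within 1.5 times. Counts of this size were therefore not particular to the alpha globin ranking. The difference of median positions, 28.7, was -3.28 when cells were ranked by beta globin and between 26.2 and 37 under the other alternatives. Ranked by beta globin, 13 of the 30 genes with the largest ratios among those that meet the naming rule were still past 1.5-fold in the same direction, while Stk17b (-0.56), Lrrc56 (-0.36), Fam83d (-1.03), Zfp281 (-0.05) and Tap2 (0.09) changed the sign of their log2 ratio, as did the median of the G2 and M phase list (-0.16). Other list medians became smaller under that ranking. The red cell surface list went from 0.43 to 0.02, glycolysis from -0.38 to -0.04 and the receptor list from -0.37 to -0.07. Heme enzymes went from 0.34 to 0.10, the membrane skeleton from 0.46 to 0.23 and late erythroblast genes from 0.60 to 0.38. The S phase list moved the other way, from -0.03 to 0.20. Cptp was at 0.42 in rows E to H. Alas2 was at -3.02 in rows A to D and -0.02 by the median. The receptor list had a median of 0.17 without a filter and 0.01 at 50 CPM. The 3 hepatoblast genes were at 0.04 by the median of per-cell CPM, 0.40 with 8 and 0.18 with 6 cells a side, and 0.35 in rows E to H. The causes were not tested. No paired analysis was possible because both sides come from 1 gate and the replicate numbers only name wells.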

Other observations

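Some lists have not been described above. Peroxide and superoxide defence had 0 of 14 genes past 1.5-fold in either direction, but Prdx2, peroxiredoxin 2, and Gpx1, glutathione peroxidase 1, which are abundant in red cells, were higher in globin-high cells in 83.3% and 79.9% of pairs. Prdx2 ranged from 1376 through 1901 to 2890.2 CPM against 1137 through 1516 to 1945 CPM. Txnrd1 and Gsr, the reductases of thioredoxin and glutathione, were higher in globin-high cells in 23.6% and 26.4% of pairs, so the median log2 ratio of the list, -0.03, covers members that lay on opposite sides. Cholesterol and fatty acid metabolism had 1 of 18 higher, Acp5, an acid phosphatase in that list. Its log2 ratio was 1.46 with all cells and 0.21 without the 3 cells apart. Apoptosis and autophagy had 0 of 12 higher and 2 lower, Bcl2l11 and Mcl1.

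Values per cell show where the alpha and beta globin rankings part. The cell of well C8, rank 4 in alpha globin with 169 CPM, held 1.34 CPM of beta globin from 2 reads. The cell of well E8, rank 13 in alpha globin with 88 CPM, held 52.3 CPM of beta globin from 91 reads. The cell of well D7 stood at position 80.8, above the 75.4 of well E9, with 147 CPM of alpha globin against 707. These 4 cells were picked with their values known.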
